A study of Rattus norvegicus with 25 samples.

Results

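The 6 genes described here, Cdk1, Mki67, Pcna, Ccnd1, Nes and Vim, are widely used marks of dividing cells and of neural progenitors. They were chosen by Ensembl gene ID, and all 6 were present among the 29516 gene IDs of the deposited table. RNA of the prefrontal cortex of wild-type (WT) Wistar rats, medial according to the study's design, was sequenced at 5 ages, called P8, P14, P21, P35 and P70 after the postnatal day. With 5 libraries per age, 25 entered in all. No group carried a treatment or an altered allele, and age was the only labelled difference between groups. Whether every library stems from an animal of its own is not in the labels, nor is the sex, so the p-values describe the spread among these 25 libraries, which may be partly technical. Values are FPKM, fragments scaled to transcript length and to the mapped fragments of the library, which allows levels to be compared between genes.

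A cell that commits to division passes from the growth phase G1 through DNA synthesis to mitosis, and different genes mark different parts of that path. In the rodent cortex most neurons are born before birth, and the cells that still divide in the first postnatal weeks are largely glial precursors, microglia and cells of growing vessels. Intermediate filament proteins such as nestin and vimentin fill the processes of progenitors and radial glia and are replaced as these cells mature.

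Relative depth of the libraries ran from 0.386 to 1.31 times the median, with P21 replicate 5 (0.386) and P70 replicate 2 (0.447) the shallowest. Whole reads behind the FPKM could be recovered for 4 of the 6 genes, Cdk1, Mki67, Pcna and Vim, but not for Ccnd1 and Nes. No other gene ID could be paired with a symbol here (0 matched), so marker genes of the tissue and of its cell types were not analysed here. In whole tissue, fewer cells of a type and less RNA per cell cannot be told apart.

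All 6 genes fell between P8 and P70 (limma, adjusted p under 0.05), against 34.6% of the 14128 gene IDs tested that fell over the same span. In each of the 6 genes every P70 library lay below every P8 library, which held for 28.5% of gene IDs. The falls were unequal. Cdk1 kept 4.42% ± 1.17 (SE) of its P8 mean and Nes 14.6% ± 1.69, while Mki67 kept 22.2% ± 2.66. Pcna, Vim and Ccnd1 kept 49.1% ± 3.84, 49.6% ± 4.66 and 54.9% ± 7.05. The median log2 change of the 6 genes was -1.27, beside -0.16 for all gene IDs tested. All 6 also differed over the 5 ages together (limma F-test, adjusted p under 0.05), as did 55.5% of gene IDs. With FPKM totals made equal Ccnd1 lost this call (F-test, adjusted p = 0.451), and 2182 gene IDs passed in place of 7848.

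**Figure D1:**
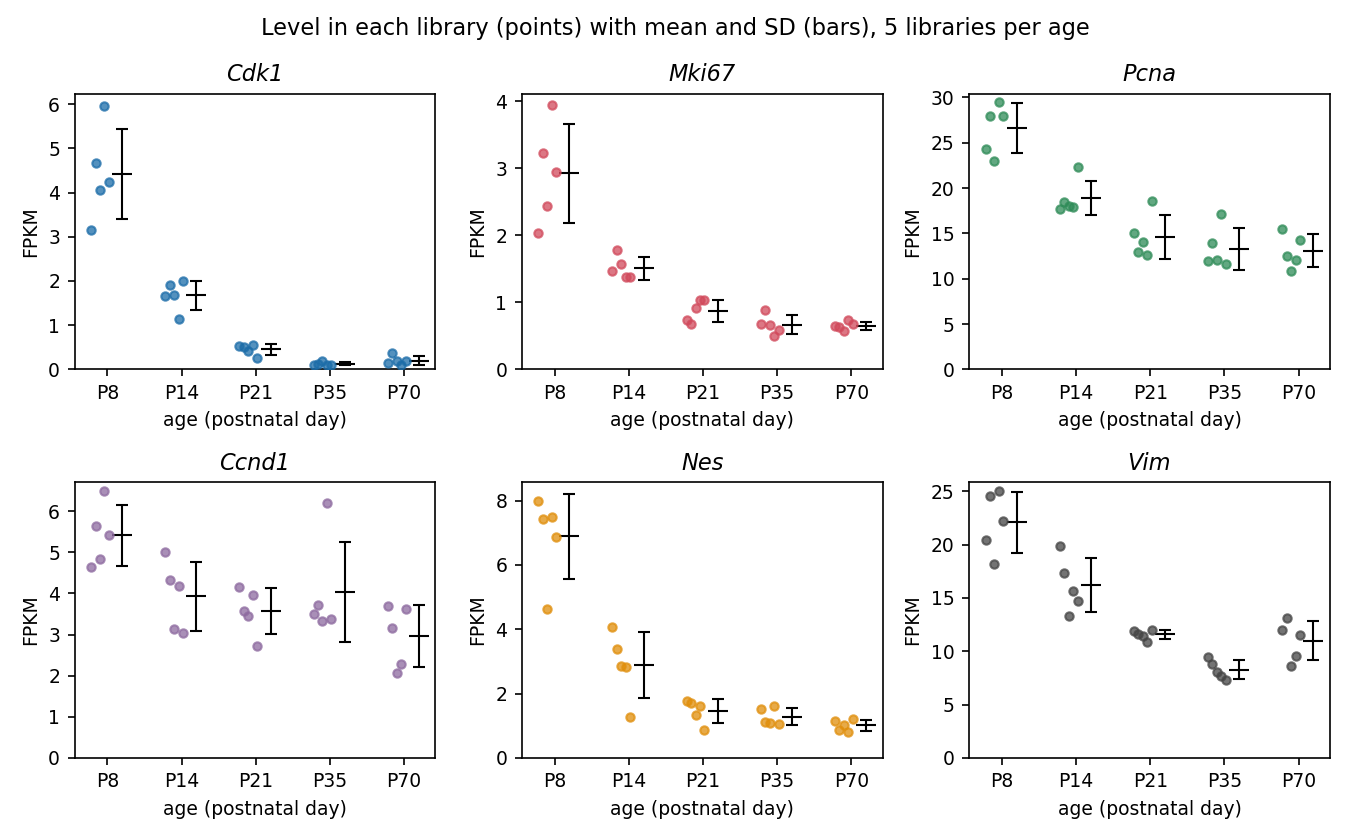
FPKM (vertical axes) of each gene in each library (points) at the 5 ages (horizontal axes), with the mean and SD of 5 libraries beside them. In all 6 panels the P8 points lie above all P70 points, and Cdk1 falls from a mean of 4.42 to 0.196 FPKM.

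Cdk1 (ENSRNOG00000000632), the kinase that drives entry into mitosis, had the most negative change of the 6, although its difference from Nes did not pass. At P8 its level was 3.16, 4.67, 4.07, 5.95 and 4.25 FPKM in replicates 1 to 5. At P14 it was 1.67, 1.91, 1.69, 1.15 and 1.99 FPKM, and at P21 0.534, 0.514, 0.411, 0.562 and 0.26 FPKM. No library of P14 reached the P8 range, and no library of P21 reached the P14 range. At P35 the 5 libraries held 0.105, 0.124, 0.193, 0.103 and 0.106 FPKM, again all below the P21 range. At P70 they held 0.134, 0.374, 0.191, 0.0962 and 0.183 FPKM, overlapping P35. On the log2(FPKM + 0.5) scale Cdk1 fell by 1.16 ± 0.14 (SE) from P8 to P14 (limma, adjusted p = 1.57e-06) and by 1.19 ± 0.14 from P14 to P21 (adjusted p = 4.19e-06). Over the whole span the change was -2.81 ± 0.14 (limma, adjusted p = 1.31e-13), and 0.403% of gene IDs had a more negative one. Cdk1 passed the filter on low values through P8 and P14 alone, with 0 libraries at 1 FPKM from P21 on. Its calls and its rank among gene IDs tested are therefore not independent of that filter. With no filter the change was again -2.81 (limma, adjusted p = 2.45e-13). The added 0.5 FPKM shrinks this value: means of FPKM differed 22.6-fold between P8 and P70, and the log2 scale shows 7.02-fold.

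The reads behind Cdk1 show where its decline can still be followed. Its libraries held 86 to 181 reads at P8, 38 to 69 at P14, 3 to 22 at P21, 3 to 7 at P35 and 3 to 6 at P70. Summed over an age and scaled to a library of median depth, Cdk1 had 14.8 reads at P21 (exact Poisson interval 11.5 to 18.8) and 3.87 at P35 (2.36 to 5.98). These 95% intervals cover counting error only, and they did not overlap. At P70 the value was 5.15 (3.23 to 7.79), so no difference between P35 and P70 was detectable at this depth. The step from P21 to P35, -0.60 ± 0.14 (SE), passed in the fit of all libraries (limma, adjusted p = 0.0311) but depended on the fit. It also passed with a pseudocount of 0.1 (-1.28, adjusted p = 0.00433), median-of-ratios scaling (0.0196), no filter (0.0356) and quantile normalization (0.0476). Its adjusted p was 0.1 with a pseudocount of 1, 0.117 when only P21 and P35 were fitted, and 0.186 with the first number of the titles as a block. With FPKM totals made equal it was 1, at -0.61 ± 0.29 (SE). It was 0.0633 to 0.0929 without P21 replicate 1, 2, 3 or 4, and 0.0652 to 0.0708 without P35 replicate 1, 2 or 4.

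Mki67 (ENSRNOG00000028137), which encodes Ki-67, a protein of dividing cells that coats mitotic chromosomes, fell less and reached a plateau. Its P8 libraries held 2.03, 3.23, 2.44, 3.94 and 2.94 FPKM. The P14 libraries held 1.47, 1.78, 1.57, 1.37 and 1.37 FPKM and the P21 libraries 0.734, 0.67, 0.909, 1.03 and 1.03 FPKM. As for Cdk1, P14 lay wholly below P8 and P21 wholly below P14. At P35 the values were 0.68, 0.878, 0.667, 0.495 and 0.589 FPKM. At P70 they were 0.643, 0.626, 0.574, 0.733 and 0.672 FPKM, inside the P35 range in every library. The falls were 0.74 ± 0.13 (SE) log2 units from P8 to P14 (limma, adjusted p = 9.4e-05) and 0.55 ± 0.13 from P14 to P21 (adjusted p = 0.00367). The later steps, -0.24 ± 0.13 and -0.01 ± 0.13, did not pass (limma, adjusted p = 0.467 and 1). The plateau was well covered, with 71 to 194 reads per library at P70, unlike that of Cdk1.

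Cdk1 and Mki67 exchanged places within libraries. Cdk1 was the higher of the pair in 5 of 5 libraries at P8 and 4 of 5 at P14, but in 0 of 5 at P21, P35 and P70. The ratio of Cdk1 to Mki67 was 1.44 to 1.67 at P8, 0.252 to 0.767 at P21 and 0.131 to 0.598 at P70. The difference between their P8 to P70 changes was -1.26 ± 0.12 (SE) log2 units (exact two-sided permutation test, n = 5 per age, p = 0.00794, adjusted p = 0.0119 over 15 pairs). Both libraries and depth are shared within such a ratio, so a scaling factor of a library cancels apart from the pseudocount.

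Upstream sequence of this pair is shown because both genes hold the same short motifs in the 250 bases before their starts. Any relation of these motifs to the unequal falls was not tested. RefSeq promoters of build GRCr8 matched 5 of the 6 genes by symbol. Each line gives the 250 bases before the annotated start, 5′ to 3′ on the gene's strand, for Cdk1 at chr20:19265043-19265292 (plus strand), Mki67 at chr1:199952594-199952843 (minus strand) and Pcna at chr3:139955821-139956070 (minus strand). Capitals mark the CCAAT box, the CHR element of cell cycle genes (TTTGAA) and sites of E2F type, which were searched as TTCCCGC and as the variants with other middle bases, namely TTGGCGC, then also TTCGCGC, and finally TTGCCGC, each read on both strands, so that CCAAT also appears as ATTGG.
Cdk1: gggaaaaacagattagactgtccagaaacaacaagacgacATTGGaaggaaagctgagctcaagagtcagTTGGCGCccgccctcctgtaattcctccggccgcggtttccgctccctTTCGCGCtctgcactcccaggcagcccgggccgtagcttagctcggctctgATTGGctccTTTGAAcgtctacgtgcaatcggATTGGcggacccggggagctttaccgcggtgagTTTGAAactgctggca
Mki67: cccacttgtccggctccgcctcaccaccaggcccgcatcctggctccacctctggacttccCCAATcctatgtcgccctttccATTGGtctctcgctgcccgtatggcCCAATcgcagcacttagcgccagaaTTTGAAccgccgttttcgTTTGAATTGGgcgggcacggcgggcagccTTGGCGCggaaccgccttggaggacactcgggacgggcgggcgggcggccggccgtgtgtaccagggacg
Pcna: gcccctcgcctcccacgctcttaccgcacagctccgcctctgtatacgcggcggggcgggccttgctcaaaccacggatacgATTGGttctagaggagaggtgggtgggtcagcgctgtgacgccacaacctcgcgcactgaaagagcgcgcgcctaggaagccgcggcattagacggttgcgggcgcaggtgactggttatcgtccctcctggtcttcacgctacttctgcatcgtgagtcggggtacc
The Cdk1 window held 3 CCAAT, 2 TTTGAA and 2 E2F-type matches. The TTTGAA nearest to the start began 16 bases before it, with a CCAAT match beginning 49 bases before it. Mki67 held 4 CCAAT, 2 TTTGAA and 1 E2F-type matches, and 1 of its TTTGAA copies overlapped a CCAAT match on the opposite strand. Pcna held 1 CCAAT match and 0 of the other motifs, Vim likewise 1 and 0, and Nes 0 of all of them. The GC box GGGCGG, left in lower case, matched 1 time in Cdk1, 4 times in Mki67, 1 time in Pcna, 2 times in Nes and 1 time in Vim. Of all 33469 promoters of this table, 34.0% held CCAAT, 16.2% TTTGAA, 7.59% an E2F-type match and 30.5% GGGCGG in a window of this length. A match is a description of letters and was not tested for binding.

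Pcna (ENSRNOG00000021264), the sliding clamp that holds DNA polymerase on the template and also serves DNA repair, was the most abundant of the 6 genes at every age by its mean. It ran from 23.0 to 29.5 FPKM at P8, 17.7 to 22.3 at P14, 12.6 to 18.6 at P21, 11.6 to 17.1 at P35 and 10.9 to 15.5 at P70. The P8 libraries stood apart, and from P14 on each age overlapped the next. Pcna fell by 0.48 ± 0.12 (SE) log2 units from P8 to P14 (limma, adjusted p = 0.00353) and by 1.00 ± 0.12 from P8 to P70 (adjusted p = 1.66e-07). The step from P14 to P21, -0.37 ± 0.12, passed narrowly (limma, adjusted p = 0.0345). It was lost with quantile normalization (adjusted p = 0.0711), median-of-ratios scaling (0.0647), these ages alone (0.0586) and the block (0.112), and without P14 replicate 2 (0.0545) or 5 (0.0831) or P21 replicate 2 (0.0882), 3 (0.0692) or 4 (0.0966). Making FPKM totals equal (0.258) or dropping P14 replicates 2 and 5 and P21 replicate 5, which correlated least with their own age (0.0602), lost it too. Its level stayed high among all genes: it exceeded 85.3% of the gene IDs tested at P8 and 72.6% at P70, as a mean over libraries.

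Ccnd1 (ENSRNOG00000020918) encodes cyclin D1, the regulatory partner of the G1 kinases CDK4 and CDK6, which responds to growth signals. It had the smallest change of the 6, with differences from Pcna and Vim that did not pass. Its libraries ran from 4.64 to 6.49 FPKM at P8, 3.04 to 5.0 at P14, 2.73 to 4.16 at P21, 3.34 to 6.21 at P35 and 2.07 to 3.7 at P70. Each age overlapped the next. No step between neighbouring ages passed: the changes were -0.43 ± 0.17 (SE), -0.11 ± 0.17, 0.13 ± 0.17 and -0.38 ± 0.17 log2 units (limma, adjusted p = 0.0575, 0.698, 0.839 and 0.948). The first of these passed with quantile normalization (adjusted p = 0.0287), median-of-ratios scaling (0.0201) and these ages alone (0.0451). It also passed without P14 replicate 1 (0.0321), P35 replicate 4 (0.0279) or P70 replicate 3 (0.0462). Over the whole span Ccnd1 fell by 0.79 ± 0.17 log2 units (limma, adjusted p = 0.000322), and 14.5% of gene IDs had a more negative change. That call was lost when FPKM totals were made equal (-0.69 ± 0.31, adjusted p = 0.13).

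Nes (ENSRNOG00000018681), the gene of the progenitor filament nestin, which is also made in growing vessels, had the most negative change after Cdk1. Its P8 libraries held 8.0, 7.44, 4.63, 7.49 and 6.88 FPKM. At P14 the values were 4.06, 3.39, 2.87, 2.82 and 1.26 FPKM, all below the P8 range, with replicate 5 lowest. At P21 they were 1.78, 1.71, 1.33, 1.6 and 0.864 FPKM, overlapping P14 only through that replicate. The P35 libraries held 1.51, 1.12, 1.09, 1.61 and 1.04 FPKM and the P70 libraries 1.16, 0.856, 1.01, 0.807 and 1.2 FPKM. From P21 on the ages overlapped. Nes fell by 1.17 ± 0.20 (SE) log2 units from P8 to P14 (limma, adjusted p = 7.83e-05). It fell by 0.75 ± 0.20 from P14 to P21 (adjusted p = 0.0105, and 0.0744 from these ages alone) and by 2.28 ± 0.20 over the whole span (adjusted p = 1.01e-09). Only 0.849% of gene IDs had a more negative change from P8 to P70.

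Nes and Ccnd1 also changed their order. Nes was above Ccnd1 in 4 of 5 libraries at P8, and Ccnd1 was above Nes in 5 of 5 libraries at each later age. The ratio of Ccnd1 to Nes was 0.58 to 1.05 at P8 and 2.05 to 3.69 at P70. Their changes from P8 to P70 differed by 1.49 ± 0.17 (SE) log2 units, Nes falling more (exact two-sided permutation test, n = 5 per age, p = 0.00794, adjusted p = 0.0119 over 15 pairs).

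Vim (ENSRNOG00000018087) encodes vimentin, the filament of radial glia and immature astrocytes, present also in vessel walls and meninges. At P8 its libraries held 20.4, 24.6, 18.2, 25 and 22.2 FPKM, and at P14 19.9, 17.3, 13.3, 15.7 and 14.7 FPKM. Only P14 replicate 1 reached the P8 range. At P21 the values were tightly grouped at 11.9, 11.6, 11.4, 10.9 and 12 FPKM, all below P14. At P35 they were 9.5, 8.85, 8.03, 7.64 and 7.3 FPKM, all below P21. At P70 they were 12, 13.1, 8.65, 9.59 and 11.5 FPKM, and 4 of 5 libraries lay above the whole P35 range. Vim fell by 0.44 ± 0.11 (SE) log2 units from P8 to P14 (limma, adjusted p = 0.00498) and by 0.46 ± 0.11 from P14 to P21 (adjusted p = 0.00642). From P8 to P70 it fell by 0.98 ± 0.11 (limma, adjusted p = 1.11e-07).

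Vim and Cdk1 were the 2 of the 6 genes that passed from P21 to P35, where 1.08% of gene IDs fell. The Vim change was -0.46 ± 0.11 (SE) log2 units (limma, adjusted p = 0.0353). Its direction was the same in every alternative run, but the call was lost with the block (adjusted p = 0.105), with equal FPKM totals (1), and without the 3 least correlated libraries (0.0696) or the 2 shallowest (0.0669). It was also lost without P21 replicate 1, 2, 3, 4 or 5 (0.0602 to 0.0789) and without P35 replicate 2, 3, 4 or 5 (0.0571 to 0.0846). From P35 to P70 the change was 0.38 ± 0.11 (SE) log2 units in the opposite direction. It did not pass over all gene IDs (limma, unadjusted p = 0.00282, adjusted p = 0.403), although 97.8% of gene IDs had a lower change at this step. Vim reads numbered 324 to 454 per library at P35 and 273 to 561 at P70.

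**Figure D2:**
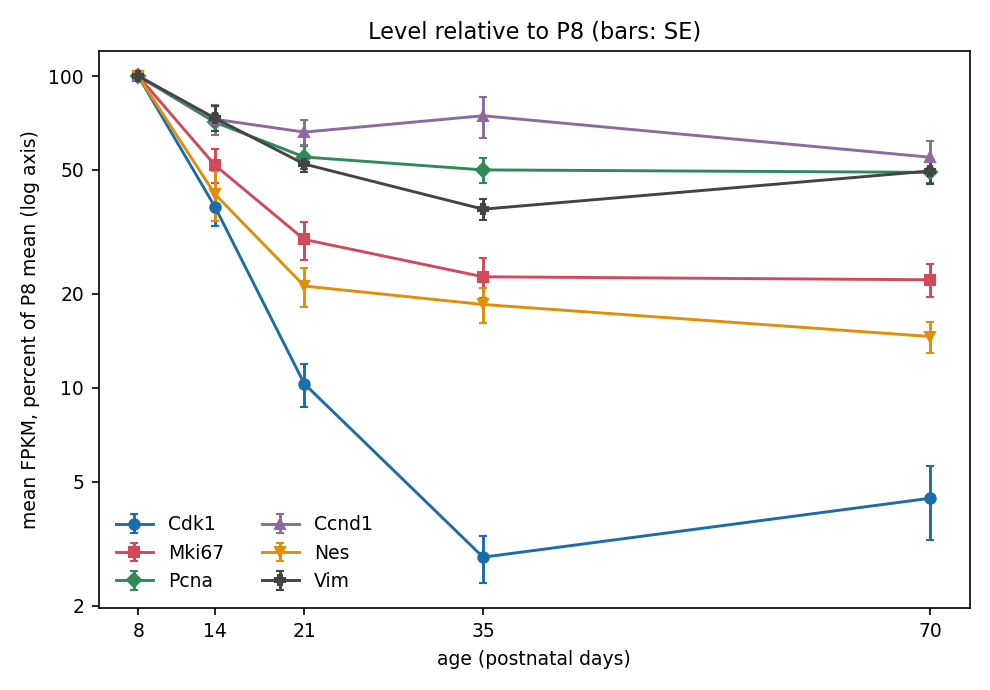
Mean FPKM of each gene as a percent of its P8 mean (vertical log axis) against age in postnatal days, with SE bars from 5 libraries per age. Cdk1 falls to 2.86% at P35, Mki67 is at 22.7% at P35 and 22.2% at P70, Nes goes from 18.5% to 14.6%, and Vim is at 37.4% at P35 and 49.6% at P70.

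Most of the change lay before P21. From P8 to P14, 5 of the 6 genes fell and Ccnd1 did not pass, where 15.3% of gene IDs fell and 13.6% rose. From P14 to P21 the same count, 5 of 6, fell and Ccnd1 again did not pass, against 12.2% of gene IDs that fell and 5.17% that rose. With FPKM totals made equal between libraries 0 of 6 passed from P8 to P14, where 0.75% of gene IDs fell. Cdk1 then stood at -0.96 ± 0.29 (SE) log2 units (limma, adjusted p = 0.0579), Nes at -0.93 (0.123) and Mki67 at -0.54 (0.419). Pcna, Ccnd1 and Vim shrank to -0.22, -0.19 and -0.18 (limma, adjusted p = 0.796, 0.848 and 0.853). From P14 to P21 that scaling left Cdk1 alone (1 of 6, with 0.885% of gene IDs falling), and the adjusted p was 0.213 for Mki67, 0.142 for Nes and 0.235 for Vim. At this step 3 of 6 passed when only P14 and P21 were fitted (9.17% of gene IDs fell) and 4 of 6 with the block (6.77%). All P14 libraries lay below all P8 libraries for 4 genes (Cdk1, Mki67, Pcna and Nes), as for 10.6% of gene IDs. All P21 libraries lay below all P14 libraries for 3 (Cdk1, Mki67 and Vim), as for 9.19%. For P35 below P21 this held for 2 (Cdk1 and Vim), beside 2.46% of gene IDs. Median changes of the 6 genes were -0.61 and -0.51 log2 units at these steps, beside -0.06 and -0.09 for all gene IDs. The neighbouring steps share the libraries of the age between them.

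After P21 little passed. From P35 to P70, 0 of the 6 genes passed (limma, adjusted p under 0.05), and Ccnd1 and Vim were under 0.05 unadjusted, with changes of opposite sign. At this step 0.0779% of gene IDs fell and 0.0425% rose. From P21 to P70 0 of 6 passed as well, where 3.68% of gene IDs fell and 2.43% rose. No gene had all P70 libraries below all P35 libraries or below all P21 libraries, beside 0.34% and 4.44% of gene IDs. The closest to passing from P21 to P70 was Cdk1, at -0.46 ± 0.14 (SE) log2 units (limma, adjusted p = 0.059). It passed with a pseudocount of 0.1 (adjusted p = 0.0157) and with median-of-ratios scaling (0.0434). It also passed without P8 replicate 1 (0.0452) or 4 (0.0432), P14 replicate 4 (0.0467), P21 replicate 5 (0.0309) or P70 replicate 2 (0.03), and without the 3 least correlated libraries (0.0266), where Nes passed too (-0.49, 0.0467), or the 2 shallowest (0.014). P70 replicate 2 holds the highest Cdk1 value of its age, from 5 reads. On the log2(FPKM + 0.5) scale 83.6% of the P8 to P70 change of Cdk1 had been reached by P21, 83.8% for Mki67 and 84.6% for Pcna. The share was 84.1% for Nes and 91.3% for Vim, but 68.4% for Ccnd1. The added 0.5 FPKM shrinks late changes at low levels. For Cdk1 the P21 to P70 change was -0.95 log2 units with a pseudocount of 0.1 and -0.28 with 1. Its P8 mean FPKM was 9.69-fold that of P21 and 22.6-fold that of P70.

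**Figure D3:**
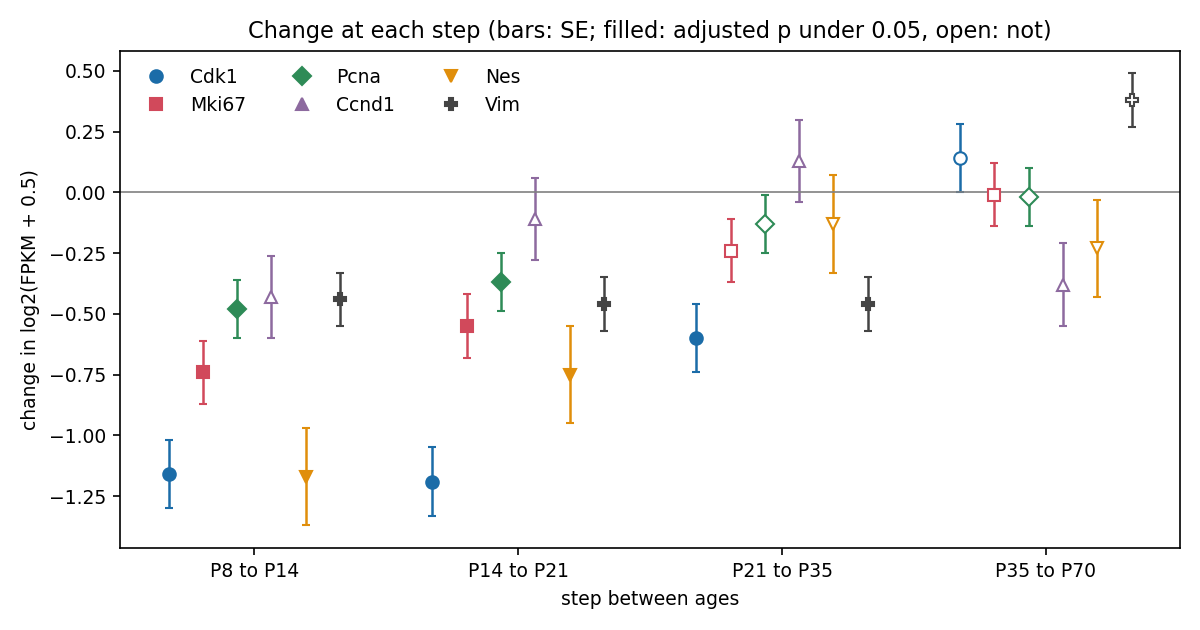
Change in log2(FPKM + 0.5) (vertical axis) of each gene at the 4 steps between neighbouring ages (horizontal axis), with SE bars. Filled symbols passed at an adjusted p under 0.05: 5 genes at each of the first steps, 2 at the step from P21 and 0 at the last.

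Whether the 6 genes fell by different amounts was tested directly for all 15 pairs, through the log2 ratio of both genes in each library of P8 and P70. The smallest p this design allows is 0.00794, and 11 of 15 pairs passed after adjustment over the pairs (exact two-sided permutation test). The test takes the libraries of an age as exchangeable. Some of them share a first title number, and the pairs were not tested with that number as a block. Cdk1 fell more than Mki67, Pcna, Ccnd1 and Vim, by 1.26 to 2.02 log2 units. Nes fell more than Mki67, Pcna, Ccnd1 and Vim, by 0.73 to 1.49. Mki67 fell more than Pcna, Vim and Ccnd1, by 0.54 ± 0.12, 0.56 ± 0.14 and 0.76 ± 0.16 (SE). These sizes depend on the pseudocount: between 0.1 and 1 the difference ran from -1.99 to -0.94 for Cdk1 and Mki67, from -3.10 to -1.46 for Cdk1 and Ccnd1, and from -0.95 to -0.25 for Mki67 and Pcna. For the pairs with Pcna and Vim, adjusted p was 0.0641 and 0.0595 with a pseudocount of 1.

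For pairs that did not pass, the size of the difference can be bounded approximately. Cdk1 and Nes differed by -0.53 log2 units (95% interval -1.05 to -0.01, exact permutation adjusted p = 0.0765), and this difference passed with a pseudocount of 0.1 (-1.32, adjusted p = 0.0198) or without P8 replicate 1 (-0.69, adjusted p = 0.0397). Pcna and Vim differed by -0.02 (-0.21 to 0.17, adjusted p = 0.921, exact permutation). Pcna and Ccnd1 differed by -0.22 (-0.40 to -0.03, adjusted p = 0.0595), and Ccnd1 and Vim by 0.20 ± 0.09 (SE, adjusted p = 0.0733, exact permutation). The latter pairs passed with a pseudocount of 1 (adjusted p = 0.0119 and 0.0216), and Ccnd1 and Vim also without P8 replicate 3 (0.0397). The intervals use a t distribution with 8 degrees of freedom on the spread between libraries. They are not adjusted over the pairs and do not come from the permutation test. Those of Cdk1 with Nes and of Pcna with Ccnd1 are negative throughout although the pairs did not pass.

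**Figure D4:**
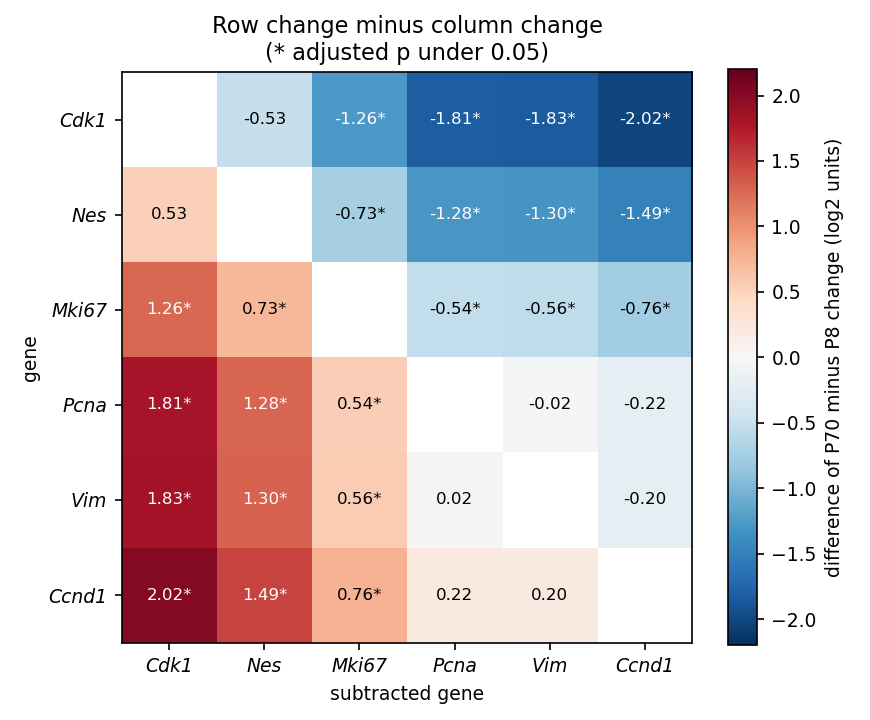
Difference of the P70 minus P8 change between the gene in the row and the gene in the column, in log2 units (color and number), with an asterisk where the adjusted p was under 0.05 over 15 pairs. Cdk1 and Nes are negative against the other 4 genes, and Pcna, Vim and Ccnd1 differ from each other by 0.22 or less.

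**Figure D5:**
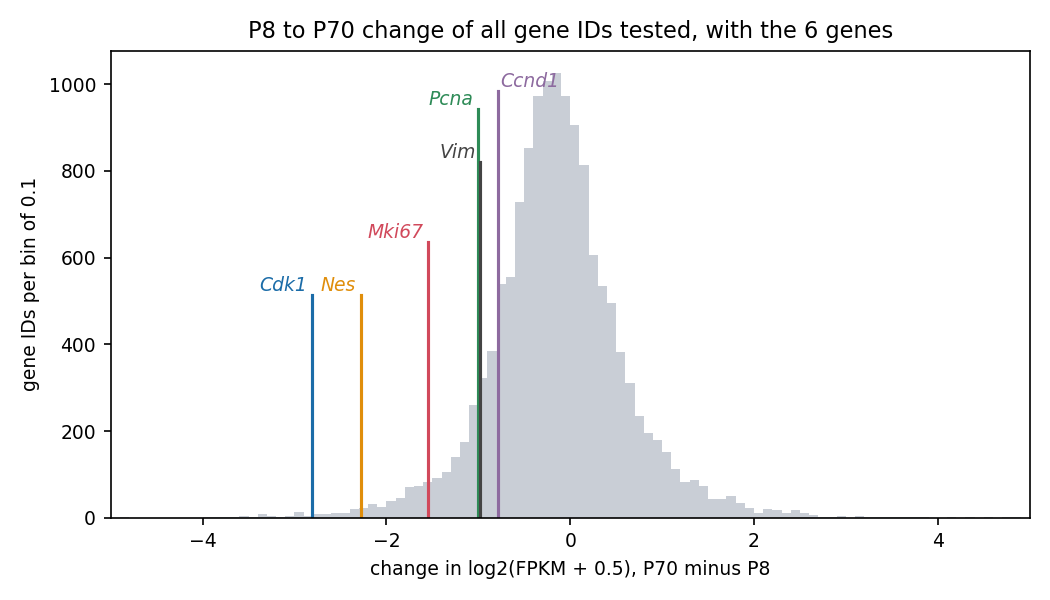
Number of gene IDs (vertical axis, bins of 0.1) by P70 minus P8 change in log2(FPKM + 0.5) (horizontal axis, shown from -5 to 5), with a line of arbitrary height at each of the 6 genes. The lines run from -0.79 for Ccnd1, which 14.5% of gene IDs lie below, to -2.81 for Cdk1, which 0.403% lie below.

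By level per length, the order of the genes at P8 was Pcna (26.6 ± 2.76 FPKM, SD, n = 5), Vim (22.1 ± 2.87), Nes (6.89 ± 1.32), Ccnd1 (5.41 ± 0.732), Cdk1 (4.42 ± 1.02) and Mki67 (2.92 ± 0.735). At P70 it was Pcna (13.1 ± 1.84 FPKM), Vim (11 ± 1.81), Ccnd1 (2.97 ± 0.752), Nes (1.01 ± 0.175), Mki67 (0.65 ± 0.0586) and Cdk1 (0.196 ± 0.107). Ranges of Pcna and Vim overlapped at both ages, as did those of Nes with Ccnd1, Ccnd1 with Cdk1 and Cdk1 with Mki67 at P8. At P70 the ranges of Ccnd1, Nes, Mki67 and Cdk1 did not overlap. Among all gene IDs tested, Cdk1 exceeded 37.2% at P8 and 1.69% at P70, and Nes 50.6% and 8.37%, as means over libraries. All 6 genes passed the filter on low values. Cdk1 did so through P8 and P14 alone, since 0 libraries reached 1 FPKM from P21 on, and Mki67 reached it in 2 libraries after P14.

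Libraries of 1 age were also compared, by the deviation of each library from its age mean. Across the 25 libraries these deviations correlated at r = 0.62 between Nes and Ccnd1 and 0.54 between Ccnd1 and Vim. The value was 0.40 for Cdk1 with Mki67 and for Nes with Vim, and 0.39 for Mki67 with Vim and for Pcna with Ccnd1. Cdk1 and Pcna stood at 0.00 and Pcna and Nes at -0.14. These are descriptions: the points share library, depth and scaling. Over all libraries, ages included, r was 0.96 between Cdk1 and Mki67 and 0.59 between Ccnd1 and Vim.

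Of the 3 gene IDs most alike to Cdk1 and to Mki67, ENSRNOG00000032404 was in both lists, first for Cdk1 (r = 0.981) and second for Mki67 (r = 0.983) over the 25 libraries. It went from 6.33 ± 2.33 FPKM at P8 to 0.129 ± 0.046 at P70 (SD, n = 5). ENSRNOG00000028870 was closest to the mean of the 6 standardised patterns (r = 0.981), at 4.94 ± 1.24 FPKM at P8 and 0.766 ± 0.261 at P70 (SD, n = 5). The nearest gene ID to each member had r = 0.970 for Pcna, 0.976 for Nes, 0.946 for Vim and 0.924 for Ccnd1. Likeness here means the same course over ages and libraries and was chosen from 14128 gene IDs, without names.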

How the data were processed

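Transcript levels were measured by RNA sequencing after ribosomal RNA depletion, as 50 bp single-end reads, per the labels' protocols. The authors deposited 1 table of FPKM, per library and Ensembl gene ID. Alignment was to rn4 with GSNAP per the labels' protocols, and the submitters' processing notes name BWA 0.6.1, bedtools and Cufflinks with no role or order. Not given in the sources used here: annotation, strand setting and the handling of multiply mapped reads. FPKM values are relative, so a few abundant transcripts can shift all other values of a library.

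Columns were matched to samples by title and grouped by labelled age, and replicate numbers follow accession order. The 15 first title numbers each occur at 1 age (0 recur), so they pair no samples between ages. Symbols of the 6 genes come from the gene choice. The deposited table and the RefSeq table pair no IDs with symbols, so the planned lists (DNA replication, mitosis, G1 regulators, neural progenitor and Notch genes, intermediate filaments) and cell type markers were not analysed here. The genes and lists were chosen with earlier results of these data known. By rule the 6 genes were named, with the gene IDs of most similar pattern (3 per gene and 5 for their mean), of which 2 are printed.

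The test was limma 3.58.1 (R 4.3.3) on log2(FPKM + 0.5) over 14128 gene IDs that reached 1 FPKM in 5 or more of the 25 libraries, in 1 fit of 5 age means with 20 residual degrees of freedom. Variances were moderated with a trend, tests were two-sided, and p-values were Benjamini-Hochberg adjusted over all gene IDs. Pairs of genes were compared by exact permutation (scipy 1.17.1). Depth came from the modes of ratios between libraries among sparse gene IDs in 300 library pairs, 0 departing. Whole reads were accepted where 95% of values lay within 0.05 reads of a whole number, which held for 9591 of 14128 gene IDs (67.9%). Recovered reads summed to 1957806 to 7130771 per library. Alternatives were other pseudocounts, filters and scalings, fewer ages, a title-number block and omission of libraries.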

Additional observations from a re-analysis of the deposited data

Results flagged for a closer look

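In 3 of 30 groups of 5 values (6 genes at 5 ages), 1 library stood far from the rest by Dixon's criterion, and about 1.5 such groups arise by chance. Cdk1 was at 0.193 FPKM in P35 replicate 3, against 0.103 to 0.124 in the others, and these values rest on 3 to 7 reads per library. Pcna was at 22.3 FPKM in P14 replicate 5, against 17.7 to 18.5. Ccnd1 was at 6.21 FPKM in P35 replicate 4, against 3.34 to 3.73. Without that library the Ccnd1 change from P21 to P35 was -0.02 ± 0.15 (SE) in place of 0.13 ± 0.17 log2 units.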

How the results depend on the processing

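Between P8 and P70 each of the 6 genes kept its direction in every alternative run. The number called was 6 with any 1 library left out, where 30.8% to 36.0% of gene IDs fell. With a mean of at least 5 FPKM, Pcna and Vim alone remained testable, among 8156 gene IDs. The number called was then 2 at the step P8 to P14, 2 at P14 to P21 and 1 at P21 to P35. Of all gene IDs in that fit, 13.9%, 14.4% and 1.13% fell at these steps. The number was 2 for P8 to P70 (36.4% fell) and 2 over all ages (4775 gene IDs passed). With FPKM totals made equal the numbers were 0 at the step P8 to P14, 1 at P14 to P21 and 0 at P21 to P35, where 0.75%, 0.885% and 0.00708% of all gene IDs fell, and Ccnd1 lost its call from P8 to P70 (-0.69 ± 0.31 SE, against ± 0.17 as deposited). That scaling moved the median change of all gene IDs to 0.18 at the first step and -0.38 at the second, and the cause was not tested. The share of gene IDs that fell from P8 to P70 was 28.1% with quantiles made equal and 27.9% with median-of-ratios scaling, which both moved the median of all gene IDs from -0.16 to -0.02, 8.44% with equal totals and 23.4% with no filter. Falls were 50.8%, 50.6% and 49.5% of calls under these 3 scalings, in place of 63.5%. Using only the ages compared gave 3 from P14 to P21 and 1 from P21 to P35 (9.17% and 0.34% of all gene IDs fell). The number from P21 to P35 was also 1 with a pseudocount of 1 (1.08% of gene IDs fell). With 1 library left out it was 0 to 2 (0.51% to 1.2% fell).

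No paired analysis was possible because the first title numbers occur at 1 age each, and the second, which recur between ages, also repeat within ages and name no single partner. With the first number of the titles as replicate block (consensus correlation 0.33), the number called was 5, 4, 0 and 0 at the 4 steps and 6 from P8 to P70 (10.9%, 6.77%, 0.361%, 0.0283% and 29.5% of all gene IDs fell), with Cdk1 at -2.81 and Ccnd1 at -0.76. Library sets were also left out after seeing the data. Without the 3 that correlated least with their own age, 1 gene was called from P21 to P35 and 2 from P21 to P70. Of 14128 gene IDs, 165 and 612 then fell. Without the 2 shallowest libraries the numbers were 1 and 1, where 98 and 382 gene IDs fell. From P21 to P70, a pseudocount of 0.1 and median-of-ratios scaling each gave 1, where 3.86% and 5.27% of gene IDs fell. Leaving out 1 library gave 0 to 1, where 2.41% to 4.09% fell.

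Reversed signs all belonged to differences that did not pass. From P35 to P70, Mki67 was 0.01 after quantile normalization and 0.05 with equal totals (-0.06 to 0.06 with 1 library left out), and Pcna 0.01 and 0.09 (-0.08 to 0.07). From P21 to P70 with equal totals, Pcna was 0.03 and Vim 0.10. Ccnd1 from P21 to P35 ran from -0.02 to 0.18 with 1 library left out. The difference between Pcna and Vim ran from -0.05 to 0.06, with 0.06 without P70 replicate 2, also the library dropped for depth. Pairs passing numbered 11 to 12 of 15 in all settings run. Depth limits Cdk1 after P21, with 3 to 7 reads per library at P35.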

Other observations

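P8 replicate 4 held the highest value of its age for 5 of the 6 genes, Nes being the exception (7.49 FPKM, against 8.0 in replicate 1). Replicates 1 and 3 shared the lowest values, with 3 genes each. Cdk1, Mki67 and Ccnd1 ranked the 5 libraries of P8 identically. Replicate 4 was highest (5.95, 3.94 and 6.49 FPKM) and replicate 1 lowest (3.16, 2.03 and 4.64 FPKM). Pcna and Vim gave the same order except that replicates 1 and 3 changed places. Relative depth of the P8 libraries was 0.874 to 1.06.

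In P14 replicate 5, Nes (1.26 FPKM), Ccnd1 (3.04 FPKM) and Mki67 (1.37 FPKM) were the lowest of the age and Pcna (22.3 FPKM) and Cdk1 (1.99 FPKM) the highest. In P21 replicate 5, Nes (0.864 FPKM), Ccnd1 (2.73 FPKM) and Cdk1 (0.26 FPKM, from 3 reads) were the lowest, and Pcna (18.6 FPKM), Vim (12 FPKM) and Mki67 (1.03 FPKM) the highest. Nes and Ccnd1 were thus lowest and Pcna highest in both libraries. Cdk1 and Mki67 took opposite ends by rank. For Mki67 these ranks were near ties, since replicate 4 showed the same rounded value at P14 (1.37 FPKM) and at P21 (1.03 FPKM). Relative depth was 0.706 and 0.386, and its part in these values was not tested.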
